A study of Mus musculus with 12 samples.

Results

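T cell receptor (TCR) clonotypes of tumor CD8+ T cells from mice given anti-CSF1R were traced into the tumor-draining lymph node of the same mice. All 5137 clonotypes listed for the tumor library and all 197970 listed for the node library were taken, out of 1502315 listed for the 12 libraries of the series. A clonotype was 1 set of chain, V gene, J gene and CDR3 bases, and it was called seen when the node library listed it with at least 1 UMI, that is, 1 cDNA molecule supported by at least 3 reads. By this rule 699 tumor clonotypes were seen in the node. The mice were wild type, carried tumors of a syngeneic head and neck cancer model and received 3 doses of an antibody that blocks CSF1R, the receptor that macrophages need for survival, at 30 mg/kg and at intervals of 3 days. The labels give neither age nor sex. The RNA of 3 mice was mixed into 1 library per tissue, so tumor and node could not be followed mouse by mouse. The other treatments, given to wild-type tumor-bearing mice on the same schedule and at equivalent doses, were control IgG, IL-10-Fc (IL-10 fused to an antibody tail) and BF10 (anti-CSF1R fused to IL-10). Their 9 libraries, also of CD8+ T cells taken by magnetic selection and each from 3 mice, served as a background, since cells of those mice cannot have entered this node.

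A TCR is a pair of chains, and each chain gene is assembled in the thymus from V and J segments, with a D segment in beta and delta chains. Bases are trimmed and added where the segments meet, and this junction is the CDR3, the part of the receptor that touches the peptide. A CDR3 with many added bases is therefore rarely made again in another cell, whereas a CDR3 copied mostly from germline segments can arise many times and in many mice. CD8+ T cells are primed in the draining node by dendritic cells that carry antigen from the tumor, divide there and travel through the blood to the tumor.

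There was 1 library per tissue and no replicate, so no difference between tumor and node has a replicate check. The intervals are 95% intervals and cover counting error, or for mean lengths the spread between clonotypes, and nothing else. For shares of tumor UMIs in seen clonotypes, they count UMIs as independent and take the seen set as fixed. They then leave out the counting error in which clonotypes the node listed. For ratios between nodes, they take the counts as independent, although the same tumor clonotypes were looked up in each node. The tumor library held 32784 UMIs of beta chains (TRBC) and 23650 of alpha chains (TRAC), and the node library held 210616 and 65745. A share of 0 in the node therefore allows up to 0.00142% of TRBC UMIs and 0.00456% of TRAC UMIs, at a limit of 3 UMIs. The node library was sequenced less deeply per molecule: 10.4% of its TRBC UMIs had at least 7 reads, against 69.6% in the tumor library, 8.26% in the BF10 node, 35.3% in the IL-10-Fc node and 40.9% in the control IgG node. In the anti-CSF1R node 78.6% of TRBC clonotypes were listed with 1 UMI, against 25.8% in the tumor. CD8 itself was not measured, and the sample titles name CD8 for the tumor and spleen libraries but not for the node libraries. Gamma and delta chains, which form the receptor of gamma-delta T cells, made up 8.93% of all UMIs in the tumor library (8.70% to 9.15%) and 4.96% in the node library (4.88% to 5.04%).

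The 10 beta chains with the most UMIs in the tumor carry the comparison and are shown by their CDR3, 5′ to 3′, named by the deposited amino acid translation or, once, by the V gene. Lower case marks bases that continue the germline V segment from the left or the germline J segment from the right, and capitals mark the bases in between, which come from the D segment or were added at the junction.
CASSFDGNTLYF: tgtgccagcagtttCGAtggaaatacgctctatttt
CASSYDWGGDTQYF: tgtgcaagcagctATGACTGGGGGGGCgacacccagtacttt
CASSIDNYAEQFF: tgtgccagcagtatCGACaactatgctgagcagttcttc
Trbv13-1 chain: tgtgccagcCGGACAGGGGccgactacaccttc
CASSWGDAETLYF: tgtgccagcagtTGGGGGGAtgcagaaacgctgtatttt
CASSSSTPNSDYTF: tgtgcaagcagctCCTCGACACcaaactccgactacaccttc
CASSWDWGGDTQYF: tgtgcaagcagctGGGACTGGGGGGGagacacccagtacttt
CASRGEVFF: tgtgccagcagAGGagaagtcttcttt
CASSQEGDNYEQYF: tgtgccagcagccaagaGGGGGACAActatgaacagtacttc
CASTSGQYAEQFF: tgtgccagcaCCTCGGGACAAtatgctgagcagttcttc

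Of these 10 beta chains, 7 were seen in the node and 3 were not. Together they had 10956 UMIs in the tumor, 33.4% of its TRBC UMIs, and 132 UMIs in the node, 0.0627% of its TRBC UMIs. Each of them took a far larger share of the tumor than of the node, a direction that their choice by tumor UMIs favors. The beta chain that led the tumor, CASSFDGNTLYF with Trbv15 and Trbj1-3, had 1636 UMIs there, or 4.99% (4.76% to 5.23%), and 0 UMIs in the node, so its share was at least 3503-fold higher in the tumor. It was listed in none of the other 11 libraries. The Trbv13-1 chain with Trbj1-2 had 1152 UMIs in the tumor, 0 in the node and 2 in the spleen of the same mice.

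Trbv16, on chromosome 6 of GRCm38 from 41151740 to 41152230, and Trbv19, from 41178375 to 41179048, provided 7 of the 10. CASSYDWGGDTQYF and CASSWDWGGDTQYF both joined Trbv16 to Trbj2-5 and differed by 3 bases and 1 residue. The first had 1496 tumor UMIs and 5 node UMIs. The second had 964 tumor UMIs and 0 node UMIs, and its only other listing was 1 UMI in the BF10 node. Of 2 nearly matching chains, the node thus listed 1, at a count close to the limit of 3 UMIs. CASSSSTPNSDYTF, also with Trbv16, had 1053 tumor UMIs and 69 node UMIs, the most node UMIs of any tumor beta chain. Its tumor share of 3.21% was 98.0 times its node share of 0.0328% (76.9 to 125), the smallest ratio among the 10. The 4 Trbv19 chains were all seen in the node. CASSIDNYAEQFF had 1303 UMIs in the tumor and 8 in the node, and was also listed with 2 to 4 UMIs in 3 libraries of other treatments. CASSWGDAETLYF had 1103 and 8. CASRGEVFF, the shortest of the 10 with 27 bases, had 865 and 22, and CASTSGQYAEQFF had 534 and 19, with 21 in the spleen of the same mice. The remaining chain, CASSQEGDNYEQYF with Trbv2 and Trbj2-7, had 850 tumor UMIs and 1 node UMI, a ratio of shares of 5461 whose counting interval runs from 768 to 38809.

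**Figure D1:**
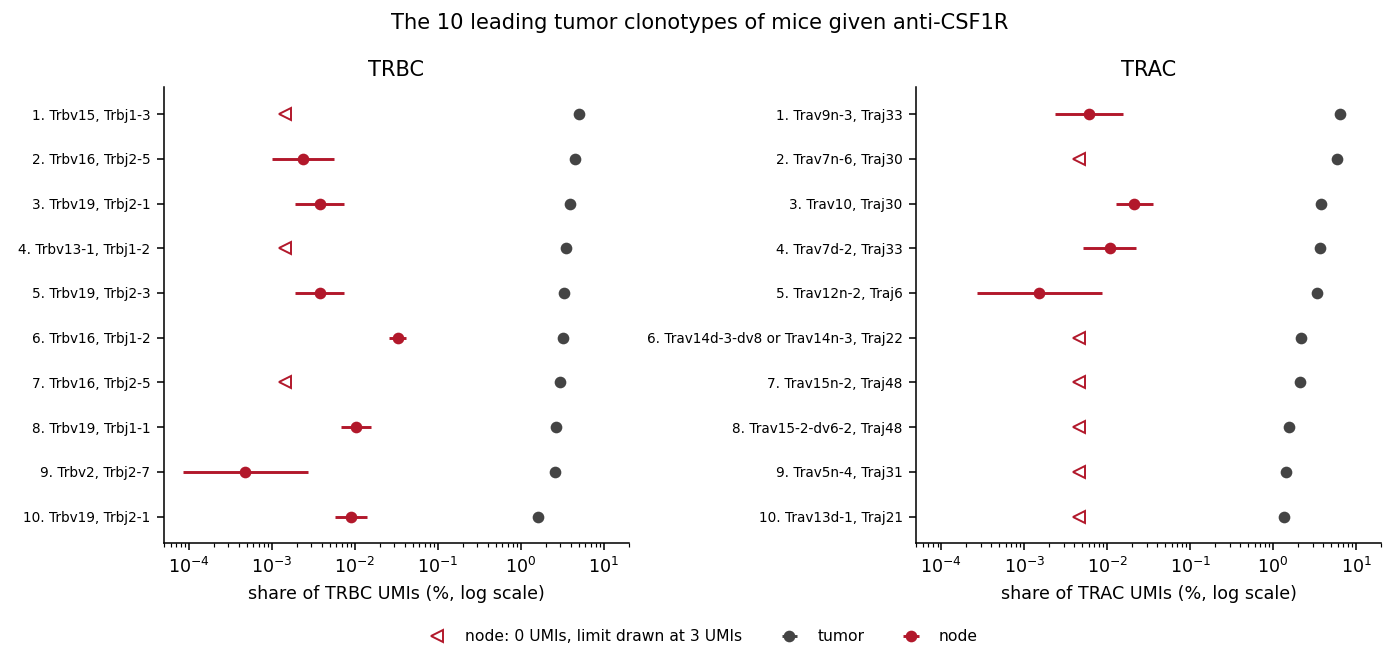
Share of the chain's UMIs (percent, log scale) in the tumor library (grey) and in the node library (red) for the 10 tumor clonotypes with the most UMIs, TRBC left and TRAC right, each named by its V and J gene, with 95% Wilson intervals. Open triangles stand at the share of 3 node UMIs where the node listed 0. Every grey point lies above 1% and every red point below 0.1%, and 3 TRBC and 6 TRAC clonotypes had no node UMI.

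The alpha chains were shown in the same way, since a clone that expanded in the tumor carries both a beta and an alpha chain, although bulk libraries do not tell which belong together. Of the 10 alpha chains with the most tumor UMIs, 2 had the same CDR3 bases under different V genes and are given as 1 sequence, named by the J gene.
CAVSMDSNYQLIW: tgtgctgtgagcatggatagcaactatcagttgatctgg
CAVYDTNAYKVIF: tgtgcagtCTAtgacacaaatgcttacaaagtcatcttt
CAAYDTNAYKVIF: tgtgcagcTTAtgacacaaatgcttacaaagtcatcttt
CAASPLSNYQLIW: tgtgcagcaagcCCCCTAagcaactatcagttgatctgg
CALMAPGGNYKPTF: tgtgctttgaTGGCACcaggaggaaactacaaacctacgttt
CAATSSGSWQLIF: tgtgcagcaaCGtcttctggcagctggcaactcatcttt
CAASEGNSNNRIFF: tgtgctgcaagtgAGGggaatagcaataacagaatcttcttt
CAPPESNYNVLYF: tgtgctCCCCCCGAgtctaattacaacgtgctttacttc
Traj48 chain: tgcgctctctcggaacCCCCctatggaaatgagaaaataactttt

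Of the 10 leading alpha chains, 4 were seen in the node and 6 were not. They had 7500 tumor UMIs, 31.7% of TRAC UMIs, and 26 node UMIs, 0.0395%. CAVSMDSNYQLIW, with Trav9n-3 and Traj33, had 1497 UMIs in the tumor and 4 in the node. Its bases all matched the germline segments, and it was the only one of the 10 listed for other treatments, in 8 of their 9 libraries with 4 to 18 UMIs each. Its listing in the node was thus shared with nodes of other mice, which had 4 to 8 UMIs of it. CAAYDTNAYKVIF (Trav10, Traj30) had 901 and 14 UMIs, and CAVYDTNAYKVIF (Trav7n-6, Traj30), 1 residue and 2 bases away, had 1406 and 0. As with the Trbv16 pair, 1 chain of 2 close relatives was seen in the node. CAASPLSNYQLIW (Trav7d-2, Traj33) had 859 and 7 UMIs, and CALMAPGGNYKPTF (Trav12n-2, Traj6) had 796 and 1. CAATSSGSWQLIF, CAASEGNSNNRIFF and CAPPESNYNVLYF had 518, 334 and 323 tumor UMIs and were not listed in any other library. The Traj48 chain was listed with 497 UMIs under Trav15n-2 and with 369 under Trav15-2-dv6-2, and neither entry occurred elsewhere. The Trav locus holds copies of many V genes, and 192 of the 2430 tumor TRAC clonotypes, with 32.5% of TRAC UMIs, had a CDR3 that was listed under more than 1 V region, against 2 of 2493 TRBC clonotypes.

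Over all tumor beta chains, 328 of 2493 were seen in the node, or 13.2% (11.9% to 14.5%). They held 15835 of 32784 tumor UMIs, or 48.3%, since large clonotypes were seen more often than small ones. The interval of this share, 47.8% to 48.8%, is too narrow, since being seen is decided per clonotype and not per UMI. The same tumor clonotypes looked up in the nodes of the other treatments gave 152 in the BF10 node, 132 in the IL-10-Fc node and 106 in the control IgG node, with 9.08%, 4.4% and 7.23% of tumor UMIs. The node of the same mice thus listed 2.16 times as many tumor beta chains as the next node (1.80 to 2.59, with the counts taken as independent). These chains held 5.32 times as large a share of tumor UMIs. With each node thinned to the 124488 TRBC UMIs of the smallest, the expected share was 10.2% of clonotypes and 44.2% of UMIs for this node, and the ratio to the next node was 2.33. With 7 reads or more required per UMI, where the nodes differed most in depth (21852 UMIs here, 65294 in the IL-10-Fc node), this node listed 71 tumor beta chains and the IL-10-Fc node 72, and at an equal 16853 such UMIs the ratio was 2.18. The node of the same mice ranked first of 4 by clonotypes and by tumor UMIs, each with a one-sided exact permutation p of 0.25, the smallest that 4 nodes allow. In the reverse check, the anti-CSF1R node listed 5.0% of the TRBC clonotypes of the BF10 tumor, 5.24% of those of the IL-10-Fc tumor and 6.0% of those of the control IgG tumor, with 6.04%, 5.89% and 10.5% of their UMIs.

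The alpha chains did not show the same order. Of 2430 tumor alpha chains 314 were seen in the node, or 12.9% (11.6% to 14.3%), with 32.1% of tumor UMIs. The interval of the UMI share, 31.5% to 32.7%, is too narrow for the reason given for beta chains. The IL-10-Fc node listed 334 of them, the control IgG node 282 and the BF10 node 250, so the node of the same mice was second of 4 by number (one-sided exact permutation p of 0.50), at 0.940 times the IL-10-Fc node (0.814 to 1.09). By share of tumor UMIs it was first, at 32.1% against 15.6% to 19.2%, with a one-sided exact permutation p of 0.25. The 4 nodes had unequal TRAC depth, from 55901 UMIs for BF10 to 137078 for IL-10-Fc. At 55901 UMIs in each, the node of the same mice was expected to list 12.1% of tumor alpha chains and the others between 9.47% and 10.3%, which puts it first with a ratio of 1.18. Of the 2116 unseen alpha chains, 353 had their CDR3 bases in the node under another V gene. Of the 2165 unseen beta chains, 80 did. Whether alike V genes of the alpha locus account for this was not tested. With V and J left out of the match, 25.9% of alpha chains and 43.8% of their UMIs were seen. By number of chains, the ratio to the highest other node was then 0.928.

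**Figure D2:**
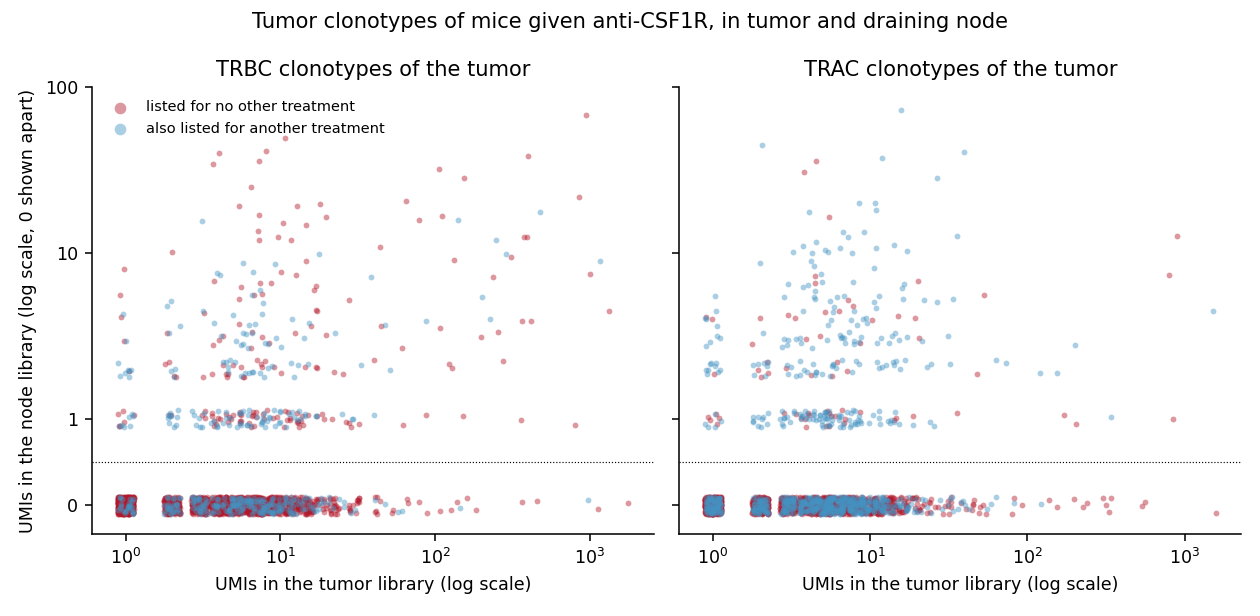
UMIs of each tumor clonotype in the tumor library (horizontal) and in the node library (vertical), both on log scales with small random shifts to separate equal values, TRBC left and TRAC right. Points under the dotted line had 0 node UMIs. Red clonotypes were listed for no other treatment and blue ones for at least 1 other. At 100 tumor UMIs and more, 29 of 39 TRBC and 10 of 23 TRAC clonotypes lie above the line.

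Sharing rose with abundance in the tumor. For beta chains with 1 tumor UMI 4.20% were seen in the node (27 of 643), with 2 UMIs 10.2%, with 3 to 9 UMIs 13.3%, with 10 to 99 UMIs 23.4% and with 100 and more 74.4% (29 of 39, 58.9% to 85.4%). In the other 3 nodes the share in the largest class lay between 7.69% and 12.8%, with intervals that did not reach that of the node of the same mice. By rank, 7 of the first 10 beta chains, 47 of the next 90, 177 of the next 900 and 97 of the remaining 1493 were seen. The 39 largest beta chains held 55.1% of tumor TRBC UMIs. Of these, 30 were listed for no other treatment, and 22 of the 30 were seen in the node. The 29 that were seen had between 1 and 69 node UMIs, with a median of 8, and 16 of them had a node UMI with at least 7 reads. The spleen of the same mice listed 6 of the 39.

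For alpha chains the share seen went from 5.12% at 1 tumor UMI to 20.5% at 10 to 99 UMIs, values that the other nodes also reached. For 10 to 99 UMIs these lay between 16.9% and 23.4%. At 100 and more it was 43.5% (10 of 23, 25.6% to 63.2%), against 8.70% to 13% in the other nodes, with overlapping intervals. The node held fewer TRAC than TRBC UMIs, and with the TRBC node thinned to 65745 UMIs, 60.4% of the 39 large beta chains would be expected to be seen.

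**Figure D3:**
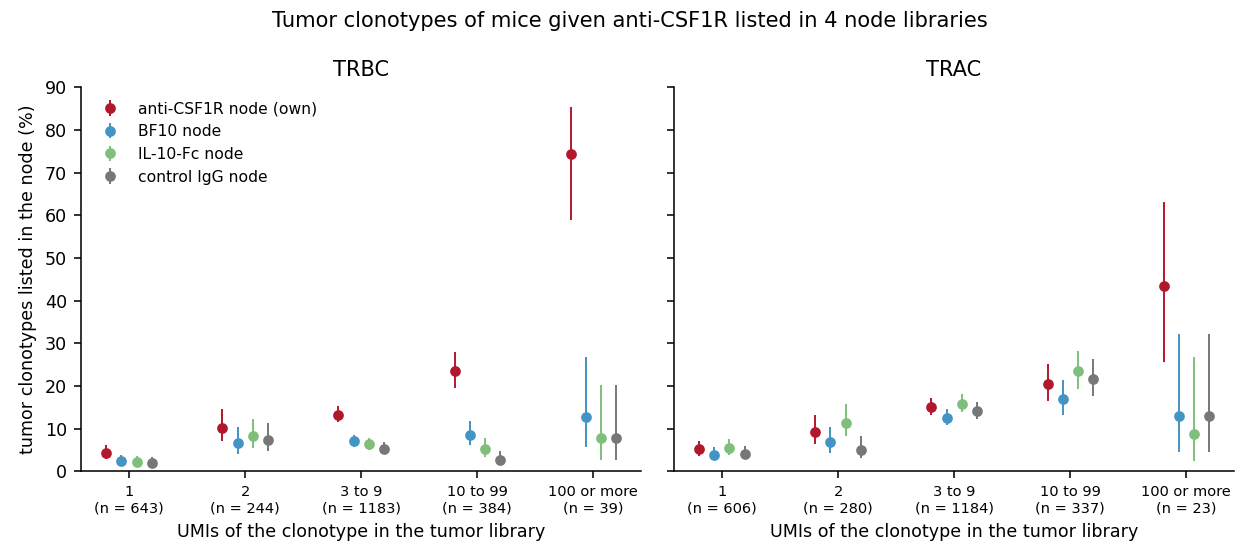
Percent of tumor clonotypes of mice given anti-CSF1R that each of the 4 node libraries listed, by UMIs of the clonotype in the tumor, with 95% Wilson intervals and the number of clonotypes in each class. In the class of 100 UMIs and more the node of the same mice reached 74.4% for TRBC and 43.5% for TRAC, while the other nodes reached at most 13%.

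Tumor clonotypes were small in the node. Of the 328 shared beta chains 146 had 1 node UMI, and the median was 2. Together they made up 0.676% of node TRBC UMIs. Node ranks were counted as 1 plus the number of node clonotypes with more UMIs, so that ties share a rank and all 119105 beta chains with 1 UMI stand at rank 32376. The best rank of a tumor beta chain was 14, held by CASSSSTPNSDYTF, 8 ranked among the first 100 and 46 among the first 1000. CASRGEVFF stood at rank 192, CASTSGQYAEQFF at 244, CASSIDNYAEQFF and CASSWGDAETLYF at 864 and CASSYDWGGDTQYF at 1664. Across the 328 shared beta chains the Spearman correlation of tumor with node UMIs was 0.25, and across the 314 shared alpha chains it was 0.14, given as a description of 1 pair of libraries with many tied low counts.

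Read from the node, none of its 10 leading beta chains, with at least 78 UMIs each, was listed in the tumor, and 8 of its first 100 were. Among node beta chains the share listed in the tumor was 0.123% at 1 node UMI, 0.248% at 2, 1.24% at 3 to 9 and 4.67% at 10 and more. After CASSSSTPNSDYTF, the tumor beta chains with the most node UMIs were small in the tumor. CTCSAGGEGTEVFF (Trbv1, Trbj1-1) had 44 node and 10 tumor UMIs, a Trbv17 chain with Trbj2-1 and a CDR3 of 54 bases had 40 and 7, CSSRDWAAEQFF (Trbv23, Trbj2-1) had 39 and 4 and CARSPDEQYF (Trbv29, Trbj2-7) had 38 and 8. Their shares of the tumor and the node differed by 0.659 to 1.46 times, and each interval held 1. These 4 were listed for no other treatment, and 2 of them had 2 or 3 UMIs in the spleen of the same mice.

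The tumor alpha chains with the most node UMIs stood at node ranks 3, 8, 9, 10 and 15, and 4 of the 10 leading node alpha chains were listed in the tumor. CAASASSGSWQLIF with Traj22 was listed in all 12 libraries with the sequence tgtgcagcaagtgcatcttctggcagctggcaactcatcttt, in which no base lies between the germline matches. Under Trav14-2 or Trav14n-2 it had 72 node and 14 tumor UMIs, and under Trav14d-3-dv8 or Trav14n-3 it had 44 and 39. In the nodes of the other treatments the first had between 67 and 179 UMIs. A Trav10 chain with Traj37 had 42 node and 11 tumor UMIs, a Trav14 chain with Traj37 had 41 and 2, and a Trav10 chain with Traj42 had 33 and 5. Of these 5 entries, the last alone was listed for no other treatment.

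The 699 shared clonotypes were therefore split by whether any of the 9 libraries of the other treatments listed them. Of the 328 shared beta chains, 173 were listed for no other treatment, with 35.6% of tumor TRBC UMIs, and 155 were listed for another, with 12.7%. Of the 314 shared alpha chains, 66 were listed for no other treatment, with 14.5% of tumor TRAC UMIs, and 248 for another, with 17.7%. Most shared beta UMIs thus belonged to chains found only in these mice, and most shared alpha clonotypes to chains found also in others. All 8 tumor beta chains among the first 100 of the node were of the first kind, against 4 of 15 for alpha chains.

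Chains seen in the node were also more often listed in the spleen of the same mice, a library that the choice of clonotypes did not use. Among beta chains of no other treatment, 44 of 173 seen in the node were in the spleen, or 25.4%, against 41 of 1903 not seen, or 2.15%. The difference was 23.3 percentage points (17.3 to 30.3). Within tumor UMI classes it was 19.8 points at 1 to 2 UMIs, 24.7 at 3 to 9 and 19.6 at 10 and more, with intervals above 0 in each. Among alpha chains of no other treatment the shares were 39.4% (26 of 66) and 2.36% (37 of 1568), a difference of 37.0 points (26.1 to 49.1).

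Shared chains had shorter CDR3s on average. For beta chains the mean length was 40.5 nucleotides in the 328 seen and 41.6 in the 2165 not seen, a difference of -1.07 (-1.66 to -0.482), with a median of 42 in both. For alpha chains the means were 40.3 and 41.4, a difference of -1.03 (-1.49 to -0.566), with medians of 39 and 42. Length went with whether other treatments had the chain. Beta chains seen in the node and for another treatment had a mean of 39.2, a difference from the unseen of -2.38 (-3.05 to -1.70), whereas beta chains seen in the node and for no other treatment had a mean of 41.7, which differed from the unseen chains by 0.101 (-0.677 to 0.880). For alpha chains of no other treatment the difference from the unseen was -0.49 (-1.32 to 0.340). The unseen chains hold both kinds, and beta chains listed for other treatments but not in the node had a mean of 39.7. Against unseen chains of the same kind, the differences were -0.16 (-0.958 to 0.633) for beta chains of no other treatment and -0.46 (-1.24 to 0.326) for those of other treatments, and for alpha chains they were -0.71 (-1.56 to 0.150) and -0.56 (-1.10 to -0.0122).

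The bases between the V and J matches, which hold the D segment and the added bases, separated the groups further. They could be counted in 97.1% of tumor beta chains and 92.6% of alpha chains. Among beta chains of no other treatment, those seen in the node had a mean of 9.90 such bases and those not seen 11.6, a difference of -1.70 (-2.33 to -1.07). Among beta chains that other treatments listed, the means were 6.29 and 7.24, a difference of -0.95 (-1.65 to -0.249). Beta chains seen in the node thus had fewer such bases within both kinds, and the kinds differed by more than seen and unseen did. Seen chains were also larger, with a median of 8 tumor UMIs against 3 among those of no other treatment. Among those of other treatments the medians were 6 and 5. Such bases were not compared within classes of tumor UMIs. Alpha chains, which have no D segment, had means of 3.37 seen and 6.86 unseen among those of no other treatment, a difference of -3.50 (-4.21 to -2.79). The medians, 3 and 4, differed less than the means, and the standard deviations were 2.26 and 8.44. The bases could be counted in 63 of the 66 seen and 1403 of the 1568 unseen chains of this kind. The count depends on the V gene assigned. The same CDR3 bases of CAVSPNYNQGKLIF matched germline throughout under Trav9n-2 but not under Trav9d-4. On simulated data, the count was checked for beta chains only. Among alpha chains that other treatments listed the means were 1.62 and 2.19, a difference of -0.57 (-0.879 to -0.268). Of the alpha chains seen in the node and for another treatment 39.5% had no such base, against 4.76% of those seen in the node and for no other treatment. The leading tumor chains cover this range: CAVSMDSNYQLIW had 0 such bases, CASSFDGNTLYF had 3 and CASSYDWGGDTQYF had 14.

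**Figure D4:**
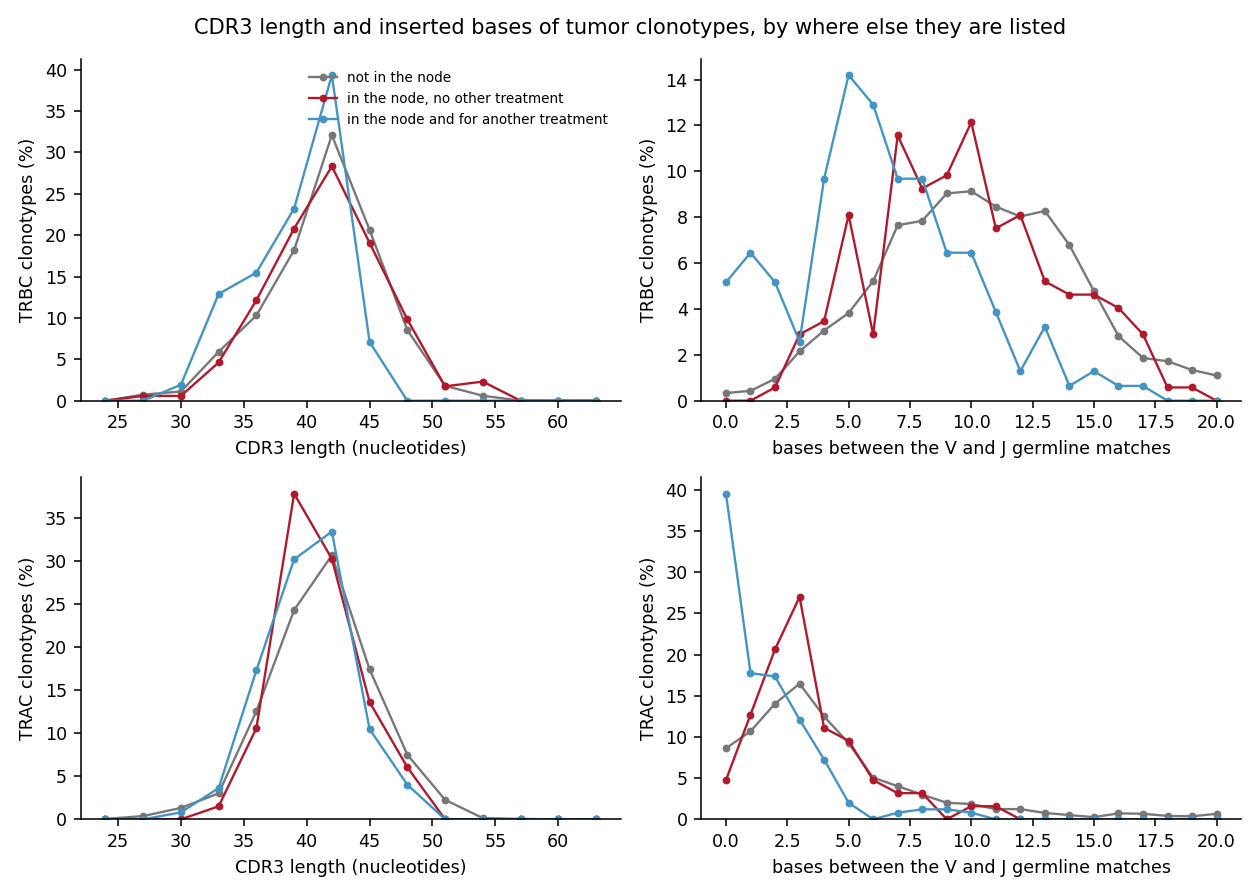
CDR3 length in nucleotides (left) and number of bases between the V and J germline matches, up to 20 (right), as percent of tumor clonotypes in each group, TRBC above and TRAC below. Grey stands for clonotypes not seen in the node, red for those seen in the node and for no other treatment and blue for those seen in the node and for another treatment. The blue lines lie to the left of the red and grey ones in both inserted base plots.

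V and J use differed little between beta chains seen and not seen in the node. Of the V genes, the 3 with the largest differences were Trbv3, Trbv13-1 and Trbv14. Trbv3 (chromosome 6, 41048290 to 41048828) was used by 9.15% of seen and 5.91% of unseen chains, a difference of 3.23 percentage points (0.361 to 6.96). Trbv13-1 was used by 2.13% and 4.53%, and Trbv14 by 2.44% and 4.62%, and the interval of the second held 0. Of the J genes, the 3 with the largest differences were Trbj2-5, Trbj1-1 and Trbj2-3. Trbj2-3 was used by 11% and 7.58%, Trbj1-1 by 14.6% and 11.2%, with an interval that held 0, and Trbj2-5 by 6.4% and 10.2%. The intervals were not widened for the choice of the largest. Without clonotypes listed for other treatments, these 6 genes kept their direction, but Trbj2-7, the J gene with the next largest difference, went from 3.11 points (-1.37 to 8.15) to -2.57. The V genes of the large clones did not stand out by number of chains: 14.1% of 355 Trbv16 chains (10.8% to 18.1%) and 14.8% of 250 Trbv19 chains (10.9% to 19.7%) were seen, near the 13.2% over all beta chains. By UMIs, chains that were seen held 4730 of 5960 for Trbv19, 3444 of 6404 for Trbv16 and 98 of 2160 for Trbv15. A few clonotypes set these shares, since 4 of the 10 leading chains held 3805 of the Trbv19 UMIs and the unseen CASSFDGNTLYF alone held 1636 of the Trbv15 UMIs.

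Among alpha chains, the Trav14 subgroup stands for chains whose assignment lists several Trav14 genes, copies that lie on chromosome 14. It was used by 16.6% of seen and 9.45% of unseen chains, a difference of 7.11 points (3.18 to 11.8). Chains assigned to a single Trav14 gene were counted apart. These were Trav14-3 with 1.59% and 0.992%, Trav14d-1 with 1.91% and 1.28%, and Trav14d-2 with 0.318% and 0.756%. The Trav14 subgroup kept a difference of 6.22 points without clonotypes listed for other treatments. Trav7d-2 (3.77 points) and Trav7d-3 (2.91 points) were also used more by seen chains, but without clonotypes listed for other treatments the differences were 0.352 and 0.559. That left 66 seen chains, of which 3.03% used Trav7d-2 and 1.52% used Trav7d-3. For J segments, Traj22 was used by 11.5% of seen and 8.22% of unseen chains, with an interval that held 0, Traj9 by 4.78% and 2.13% and Traj37 by 4.78% and 2.55%. Without clonotypes listed for other treatments Traj22 and Traj9 turned to -2.92 and -0.526 points, and Traj37 stood at 3.64. These values have no interval and rest on few chains. Of the 66 seen chains left, 4.55% used Traj22, 1.52% Traj9 and 6.06% Traj37. Among chains seen in the node and for another treatment, such as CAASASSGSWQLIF, 13.3% used Traj22.

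**Figure D5:**
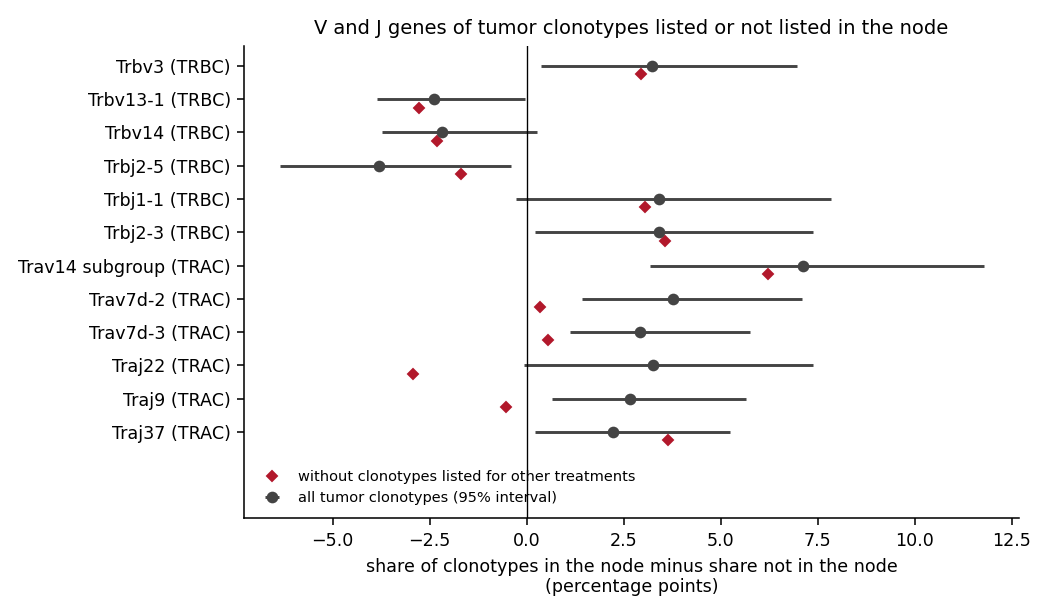
Share of clonotypes that use a V or J gene among tumor clonotypes seen in the node minus the share among those not seen, in percentage points, with 95% Newcombe intervals (grey circles), and the same without clonotypes listed for other treatments (red diamonds). The Trav14 subgroup, chains assigned to several Trav14 genes, has the largest difference, 7.11 points, and the diamonds of Traj22 and Traj9 lie left of 0. The diamonds have no intervals.

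Gamma and delta chains were shared most by UMIs. In gamma-delta T cells that leave the fetal thymus early, the joins carry few or no added bases, so the same chain occurs in all mice. Of 154 tumor gamma chains 47 were seen in the node, with 84.5% of tumor TRGC UMIs, and of 60 delta chains 10 were seen, with 70.9%. The other nodes listed 40 to 46 of the gamma chains and 6 to 11 of the delta chains, so these numbers do not tell the node of the same mice from the others. By UMIs, the chains listed in the other nodes held 71.2% to 77.7% for gamma and 69.9% to 74.6% for delta. The node of the same mice was thus first by UMIs for gamma chains but not for delta chains. Tumor and node differed in which gamma V gene carried the same CDR3 amino acids, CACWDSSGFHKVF with Trgj1. The 2 genes lie next to each other on chromosome 13, Tcrg-V6 from 19190356 to 19190929 and Tcrg-V5, which marks T cells of the epidermis, from 19192278 to 19192725.
Tcrg-V5 chain: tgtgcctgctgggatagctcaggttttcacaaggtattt
Tcrg-V6 chain: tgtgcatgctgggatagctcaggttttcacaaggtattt
Trdv4 chain: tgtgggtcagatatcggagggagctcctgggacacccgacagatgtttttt

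The Tcrg-V5 chain led the tumor gamma chains with 1095 UMIs, 24.7% of TRGC UMIs (23.5% to 26.0%), and had 104 UMIs in the node, 1.05% (0.865% to 1.27%), a share 23.6 times as high in the tumor (19.4 to 28.8). The Tcrg-V6 chain had 57 tumor UMIs, 1.29%, and 4741 node UMIs, 47.7% of TRGC UMIs (46.7% to 48.7%). In the other nodes it also exceeded the Tcrg-V5 chain, with 2556 to 5335 UMIs against 33 to 79. In the tumors of the other treatments the Tcrg-V5 chain was the larger, with 56 to 681 UMIs against 11 to 176. The Trdv4 chain with Trdj2, which is known to pair with both, led the delta chains of both libraries, with 693 UMIs in the tumor (63.1%) and 2018 in the node (45%). The alpha chain of invariant NKT cells, Trav11 with Traj18, had 10 UMIs in 3 tumor clonotypes, none seen in the node, and 255 UMIs in 35 node clonotypes. The alpha chain of MAIT cells, Trav1 with Traj33, had 0 tumor UMIs, which allows up to 0.0127% of TRAC UMIs, and 13 node UMIs.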

How the data were processed

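TCR cDNA was primed from the constant regions of the 4 chains and tagged with UMIs, and the authors' portal (Qiagen) grouped reads and assigned V, J and CDR3. The authors deposited counts of UMIs per clonotype, with minimums from 3 to 7 reads, without normalization, and a fraction, each clonotype's UMIs over the total of its library and chain. The authors also deposited a score, the rank of each clonotype. The labels name build mm10; the germline reference is not given in the sources used here. Counts with at least 3 reads were used, and sharing was matched on chain, V, J and CDR3 nucleotides. Wilson, Newcombe and Katz intervals and the expected share in a thinned node were computed. Germline segments of GENCODE M21 (GRCm38) had to match the first 6 and the last 3 bases of a CDR3. A group holds 1 library, so the only test was a permutation over the 4 nodes. Named clonotypes were the 10 TRBC and 10 TRAC with the most tumor UMIs, the 5 and 5 with the most node UMIs, the leading TRGC and TRDC, and the 3 V and 3 J genes with the largest difference. The germline split and the Tcrg-V6 chain were added after the data were seen. A group of tumor beta chains is not reported here. The members and lists were chosen with earlier results of these data known. On simulated data, the expected share was off by at most 0.311% of its value, the Wilson interval held the true TRBC share in 95% of 1000 draws and all 200 planted TRBC clonotypes were found. Scripts ran in Python 3.11.15 with pandas 2.3.3, numpy 2.4.6 and scipy 1.17.1, and figures were drawn with matplotlib 3.10.9. Alternatives changed the read and UMI minimums, the match, the node depth and the treatment of chains that other mice share, as the closing section gives, and those at equal 7-read UMIs, at TRAC depth and against unseen chains of the same kind were chosen after seeing the data. The spread between mice is not known, since each library mixes 3.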

Additional observations from a re-analysis of the deposited data

How the results depend on the processing

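The share of tumor clonotypes seen in the node moved with nearly every choice of minimum and match. For TRBC it was 13.2%, and it was 3.41% with UMIs of at least 7 reads, 9.08% with at least 2 UMIs per clonotype, 16.3% on CDR3 nucleotides without V and J, 40.3% on CDR3 amino acids, 15.2% with CDR3s 1 base apart merged, 8.33% without clonotypes listed for other treatments, 10.2% with nodes at equal UMIs and 2.87% at 7 reads and equal UMIs. In the same order the share of TRBC UMIs, 48.3%, became 29.3%, 41.2%, 49.7%, 64.4%, 49.4%, 45.6%, 44.2% and 26.6%. For TRAC the share of clonotypes, 12.9%, became 3.27% at 7 reads, 9.38% at 2 UMIs, 25.9% on nucleotides, 46.3% on amino acids, 4.04% without clonotypes of other treatments and 2.40% at 7 reads and equal UMIs. The share of TRAC UMIs, 32.1%, became 8.93%, 23.2%, 43.8%, 65.1%, 21.8% and 6.13% in that order, and 30.6% at equal UMIs.

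The ratio of the node of the same mice to the next node was 2.16 for TRBC, 2.63 at 2 UMIs and 1.13 on amino acids, and it turned to 0.986 at 7 reads. For TRAC it was 0.940, with 0.329 at 7 reads and 0.784 at 2 UMIs, and it turned to 1.18 at equal UMIs and 1.25 at 7 reads and equal UMIs. At equal UMIs the ratios of both chains lay above 1, but the nodes still differed in reads per UMI. The TRBC length difference fell to -0.16 nucleotides without clonotypes of other treatments. There Traj22 and Traj9 turned to -2.92 and -0.526 points, with 4.55% and 1.52% of the 66 seen alpha chains. In all, 35 further values of the main results moved by less than their interval. No paired analysis was possible because each group has 1 library. The mixing of 3 mice in each library and the lack of a second library limit every comparison between tumor and node, and a clonotype that the node does not list may lie under 3 UMIs.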
